A study of Mus musculus with 10 samples.

Results

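The comparison described here sets crypts from the colon of mice with chemically induced colitis against crypts from untreated mice, over genes outside the panels usually shown for inflammation. Its members are the genes whose mean normalized read count reached 50 in either group, and 11980 of the 23364 genes in the deposited table met that rule. Of these, 11230 reached 50 in both groups, 497 only in colitis and 253 only in the untreated group. Near the limit, Col1a1 and Tlr5 lay just inside with control means of 50.028 and 50.103 and DSS means of 14.7 and 35.1, and Ddit4l and Cyp4f17 just outside with control means of 49.956 and 49.953 and DSS means of 24.4 and 29.9 by the authors' deposited table.

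All libraries were poly(A) RNA from the distal mouse colon, whose crypts had been shaken off the wall in EDTA, a chelator that loosens epithelium. The control group held 3 libraries from mice with no treatment, and the DSS group held 4 libraries from mice treated with dextran sulfate sodium (DSS), a polymer that injures the colon lining and is used as a model of colitis. The 3 libraries of the AOM+DSS group came from mice treated with azoxymethane (AOM), a carcinogen, and then with DSS, and serve below only for values beside those of DSS. The header of that group's deposited values speaks of 4 replicates, but the labels list 3 and the means fit 3 libraries. The labels give no strain, age, sex, dose or length of treatment, no allele, and no statement that each library is a separate animal, so each p-value speaks of the spread among these libraries alone, and that spread may be technical.

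The colonic crypt is a fold of epithelium with dividing cells at its base and absorptive, mucus-secreting and hormone-secreting cells above. Its cells sense microbes and interferons, build the mucin coat by adding sugars to proteins, and take up salt, water and bacterial metabolites. In colitis leukocytes gather around and inside the crypt, and RNA from such cells can be carried along in a crypt preparation.

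The deposited values are means of normalized reads, that is, reads of a gene divided by a size factor for the depth of each library. Whole reads in each library were recovered from these means for 23339 genes in control and for 21170 in DSS. No value per library could be recovered in DSS for many genes of high level, the lowest of them with a mean of 1382.5, and for these only the group mean is given. Within each group libraries are lettered from the deepest, a, and a letter does not stand for any replicate number in the labels. Recovered depth was 16653502 to 18361675 reads in control, and DSS size factors ran from 0.645 to 1.27. A gene is called where the authors' DESeq test gave an adjusted p under 0.05.

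Marker levels of other cell types varied between and within groups. Of 10 pan-epithelial genes, 0 were called by the authors' DESeq test and 0 had an unadjusted p under 0.05, and their mean sums were 244681 normalized reads in control and 274712 in DSS. The sum over 9 recovered B and plasma cell markers was 202, 1098 and 130.3 normalized reads in control libraries a to c and 9764, 3414, 2083 and 2229 in DSS libraries a to d. For 11 neutrophil and macrophage markers the sums were 392, 1973 and 273 in control and 6701, 3650.0, 946 and 793 in DSS, and for 11 T and NK cell markers they were 398, 1084 and 279.6 against 4547, 937, 765 and 1039. Control library b thus carried more of these transcripts than the other controls, and it also held 2385 normalized reads of 10 fibroblast markers against 586 and 499. By the authors' DESeq test 2 of 11 neutrophil and macrophage markers were called higher, Csf3r and Cxcr2, with a median log2 change of 1.94 and 5 under an unadjusted p of 0.05, and Mpo, a neutrophil granule enzyme, was at 0 in all 3 control libraries and in 3 of 4 DSS libraries. Of 10 B and plasma cell markers 1 was called higher, Pax5, with a median of 2.99, and of 11 T and NK cell markers 1, Gzmb, with a median of 1.81. Sums of 7 squamous epithelium markers were 231, 261 and 288 in control and 666, 573, 1236 and 2097 in DSS, with Sprr1a and Krt13 called higher of 7 tested. Smooth muscle markers, 10 in number, summed to 1519, 3102 and 1502 in control and 1842, 2320.2, 1954 and 2018 in DSS. Their part in the results below was not tested.

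In all, 449 members were called higher in DSS, which is 3.75% of them, and 314 were called lower, which is 2.62%. Over all 18099 genes with a p-value the shares were 2.61% and 1.78%, or 4.39% in either direction. The median fold of the members called higher was 2.72, and for those called lower the control mean was a median of 2.22 times the DSS mean. Large rises outnumbered large falls: 149 members were at least 8-fold higher in DSS and 54 of them were called, while 20 were at least 8-fold lower and 16 of them were called. Of the members called, 160 match a set of gene names and name patterns, called the usual panels here, which covers chemokines and interleukins, antimicrobial proteins, many interferon-induced and antigen presentation genes, xenobiotic enzymes, and single genes such as Slc30a10, Fxyd4 and Bex4 that stood out in earlier results of these data. The set is not complete: the cytokine gene Osm and the interferon-responsive B2m and Slfn4 are outside it. Most of what follows concerns the other members, and genes of the set appear where a functional list holds them.

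**Figure D1:**
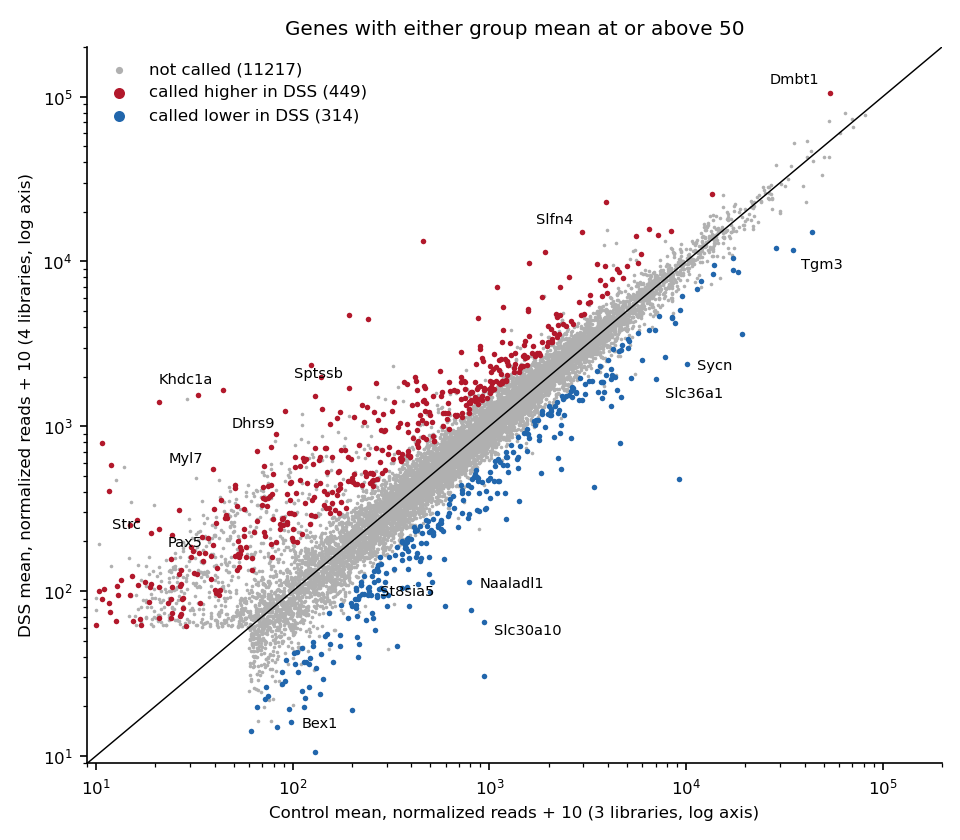
Each point is a member, with the control mean on the x axis and the DSS mean on the y axis, both in normalized reads with 10 added and on log axes. Red and blue points are the 449 and 314 members called higher and lower, the line marks equal means, and the red points spread farther from the line at low control means than the blue points do at low DSS means.

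Recovered reads allowed a look at every library. Among members called higher with reads in both groups, 313 of 334 had every DSS library above every control library, and among those called lower 274 of 278 had every DSS library below. Over all recovered genes with a p-value, such separation was seen in 9.35% and 10.6%. The calls were made on these same libraries, which favours such separation, so the counts are a description and no separate support. Control library b was the highest control for 80.2% of the recovered genes called higher, against 40.3% of all recovered members, and the lowest control for 62.6% of those called lower, against 43.9%. In this sense library b lay nearer to DSS than the other controls across the called genes. A second test, limma on log2 of the recovered normalized reads with 1 added, called 493 genes higher (3.57% of 13816) and 435 lower (3.15%), and without control library b it called 759 higher (5.54%) and 392 lower (2.86%). Without control library a these counts were 103 and 63, and without control library c they were 123 and 95. Of the 88 named genes that limma called with all libraries, 49 lost the call without control library a, 39 without control library c, 6 without control library b, and 8, 12, 6 and 13 without DSS libraries a, b, c and d.

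Among the highest folds outside the usual panels stood a pair of neighbouring genes for KH domain proteins known from oocytes and early embryos. Khdc1a was at 21.2, 40.5 and 41.3 normalized reads in control libraries a to c and at 1399, 2043, 1568 and 1602 in DSS libraries a to d. Khdc1c was at 6.76, 2.96 and 8.47 in control and at 224, 306, 239 and 267 in DSS. The DSS libraries lay close together for both genes and far above every control. In the authors' deposited table Khdc1a rose 48.1-fold (DESeq adjusted p = 2.09e-52) and Khdc1c 42.7-fold (adjusted p = 4.18e-30). The family members are near copies of each other, so how reads were divided between them is uncertain.

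Genes known from quite other tissues followed. Strc encodes stereocilin, a protein of inner ear hair cells, and was at 3.86, 13.8 and 9.53 normalized reads in control and 189.7, 165, 276 and 231 in DSS. Myl7, the myosin light chain of the heart atrium, was at 16.4, 43.5 and 28.6 in control and 378, 541, 416 and 811 in DSS. Every DSS library exceeded every control for both, and library d was the highest for Myl7. Per the authors' deposited table, Strc rose by 4.57 on the log2 scale (DESeq adjusted p = 5.43e-19) and Myl7 by 4.19 (adjusted p = 1.00e-17). By limma, Khdc1a, Khdc1c, Strc and Myl7 passed with any single library left out.

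Pax5, the transcription factor that fixes the B cell lineage, was at 5.79, 19.8 and 7.41 normalized reads in control and at 283, 187, 193 and 253 in DSS. Its 4 DSS libraries were even, whereas Cd79a, a chain of the B cell receptor complex, was at 2486, 746, 408 and 396 in the same libraries and at 50.2, 232 and 23.3 in control. Pax5 rose 20.8-fold in the authors' deposited table (DESeq adjusted p = 1.32e-17), and Cd79a, at 9.90-fold and with every DSS library above every control, did not pass there (adjusted p = 0.423). By limma Cd79a passed (adjusted p = 0.0408), as did 4 of 9 B and plasma cell markers with all libraries and 8 of 9 without control library b. In AOM+DSS the means were 26.7 for Pax5 and 154 for Cd79a. The part of B cells in the Pax5 result was not tested.

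Protease inhibitors were called in both directions. Wfdc18, a small inhibitor with a whey acidic protein domain, was at 100.4, 132 and 161 normalized reads in control and 1017, 1386, 1004 and 1653 in DSS. Serpina10, which inhibits coagulation factor X together with protein Z, was at 5.79, 9.88 and 3.18 in control and 50.6, 162, 56.6 and 124 in DSS. Both were separated from control without overlap, Wfdc18 more evenly than Serpina10. The authors' deposited table gives log2 rises of 3.27 for Wfdc18 (DESeq adjusted p = 2.06e-37), 3.97 for Serpina10 (adjusted p = 8.83e-05) and 4.11 for Serpina1b (adjusted p = 1.45e-04), one of the near-identical alpha-1 antitrypsin genes, among which reads cannot be assigned with certainty. Across the list of serine proteases and inhibitors, which does not hold Wfdc18 or Serpina10, 3 of 40 were called higher and 4 lower, against 2.61% and 1.78% of all genes tested. The lower ones were Hpn, Wfdc2, Klk1 and Prss23, and Wfdc2, like Wfdc18 a whey acidic protein, is given with the abundant genes below. Plaur, the receptor of urokinase, was one that rose (log2 2.72, DESeq adjusted p = 2.33e-05), and the membrane protease Hpn fell by 2.05 (adjusted p = 8.07e-06) by the authors' deposited table.

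Enzymes of lipid and energy metabolism were also among the strongest calls. Dhrs9, a dehydrogenase of retinol and steroids, was at 54.1, 106 and 84.7 normalized reads in control and 1070.3, 1499.6, 1007 and 1308 in DSS. Sptssb, a small subunit of serine palmitoyltransferase, the first enzyme of sphingolipid synthesis, was at 64.7, 394 and 90.0 in control and 1467, 1565, 1742 and 1998 in DSS. Ckb, the brain type of creatine kinase, was at 67.6, 153 and 56.1 in control and 639, 594, 445 and 898 in DSS. Control library b was the highest control for all 3 and Sptssb differed most between controls, yet no DSS library came down to it. According to the authors' deposited table, the rises were 3.91 for Dhrs9 (DESeq adjusted p = 1.03e-13), 3.21 for Sptssb (adjusted p = 1.36e-35) and 2.80 for Ckb (adjusted p = 2.75e-19) on the log2 scale.

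Leukocyte genes among the highest folds were less even. Trem1, a receptor that amplifies neutrophil and monocyte activation, was at 0.965, 3.95 and 0 normalized reads in control and 74.3, 216, 4.25 and 4.65 in DSS. Osm, the cytokine oncostatin M, was at 0.965, 7.90 and 0 in control and 86.2, 229, 11.3 and 12.4 in DSS. Both were carried by DSS libraries a and b, which also held the highest sums of neutrophil and macrophage markers, and their part in these results was not tested. Trem1 rose 45.6-fold (DESeq adjusted p = 0.0351) and Osm 28.7-fold (adjusted p = 0.00793) by the authors' deposited table, while limma gave adjusted p = 0.139 and 0.0723. Gp49a, an immunoglobulin-like receptor of myeloid cells with a close copy in the genome, showed the same unevenness, with 332 normalized reads in library b and 15.6 in library c, and limma gave adjusted p = 0.0652.

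**Figure D2:**
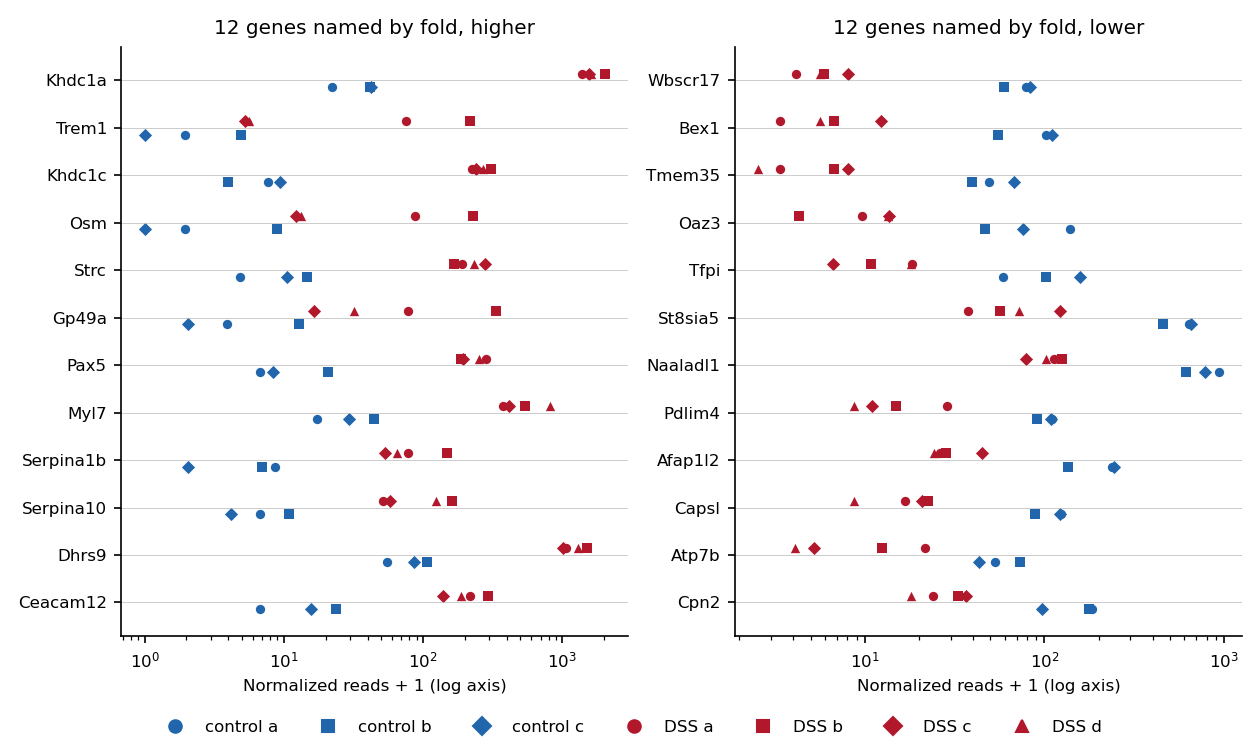
The 12 highest and the 12 lowest folds among called members outside the usual panels, a set that also takes out Slc30a10, Fxyd4 and Bex4, and recovered in every library with at least 3 reads in each group and no overlap, one gene per row. The x axis gives normalized reads with 1 added on a log axis, blue points are control libraries and red points DSS libraries, with a marker shape for each letter; Trem1, Osm and Gp49a show the widest spread within DSS.

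Outside the usual panels the 8 largest gains in mean normalized reads were those of Dmbt1, Slfn4, B2m, Cd177, Lgals3bp, B4galnt2, Irf7 and Hk2, of which Irf7 and B4galnt2 are described with their lists. Dmbt1, a scavenger receptor secreted onto mucosal surfaces, had a mean of 53745 normalized reads in control and 105433 in DSS in the authors' deposited table (DESeq adjusted p = 0.00609), which took it from 0.285% to 0.542% of all normalized reads. Slfn4, a Schlafen family gene known from myeloid cells and induced by interferon, rose from 2936 to 14975 (adjusted p = 4.38e-17) by the authors' deposited table. B2m, the light chain of MHC class I, rose from 6451 to 15716 (adjusted p = 9.05e-08), Lgals3bp, a secreted galectin ligand, from 3530.5 to 9573 (adjusted p = 3.43e-10) and Hk2, an inducible hexokinase, from 4437 to 9040.1 (adjusted p = 0.0124) by the authors' deposited table. Cd177, a surface protein known from neutrophils, rose from 7173 to 14512 (adjusted p = 0.0271), and control library b held 10596 against 5868 and 5056 in the other controls, with the group means taken from the authors' deposited table. Ly6a and Ly6e, members of the Ly6 family of lipid-anchored surface proteins whose close copies make read assignment uncertain, stood at 14346 and 15344 in DSS against 5532 and 8330.0 in control in the authors' deposited table.

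Falls outside the usual panels were led by genes with low levels in DSS. Bex4 and Slc30a10, which those panels hold, fell further and are given below. Since these are bulk samples, fewer cells of a type and less RNA per cell cannot be told apart. Wbscr17, a relative of the enzymes that start O-glycans, was at 78.2, 58.3 and 82.6 normalized reads in control and 3.16, 4.94, 7.08 and 4.65 in DSS. St8sia5, a sialyltransferase that extends gangliosides, was at 639, 456 and 651 in control and 36.4, 55.2, 120.4 and 71.3 in DSS. Naaladl1, a peptidase first described in the ileum, was at 934, 613 and 781 in control and 112, 124, 77.9 and 101 in DSS. The lowest control library stood well above the highest DSS library for each. In the authors' deposited table Wbscr17 fell by 3.88 (DESeq adjusted p = 4.35e-05), St8sia5 fell by 3.04 (adjusted p = 2.55e-18) and Naaladl1 fell by 2.90 (adjusted p = 5.47e-12), each as a log2 change.

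Bex1 and Tceal8, small X-linked genes of related families, were among the falls. Bex1 was at 100.4, 54.3 and 109 normalized reads in control and 2.37, 5.77, 11.3 and 4.65 in DSS, and Tceal8 was at 420.0, 491 and 549 in control and 76.7, 104, 73.6 and 99.3 in DSS. Neither gene overlapped between groups. Bex1 fell by 3.87 (DESeq adjusted p = 0.00795) and Tceal8 fell by 2.46 (adjusted p = 3.22e-13) by the authors' deposited table. Tceal8 lies next to Bex4 among genes ordered by position, and Bex4 had a mean of 119 in control and 0.552 in DSS (adjusted p = 1.57e-10), while Bex2 did not pass, with 80.0 and 71.8 (adjusted p = 1.00), by the authors' deposited table. These were chosen after their values were seen.

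Other falls of this size concerned secreted plasma-type proteins and transporters. Itih2, a heavy chain that binds hyaluronan, was at 525, 425 and 559 normalized reads in control and 152, 127, 52.4 and 83.8 in DSS. Tfpi, the tissue factor pathway inhibitor of coagulation, was at 57.9, 101 and 157 in control and 17.4, 9.89, 5.66 and 17.1 in DSS. Slc30a10, a manganese exporter, was at 1470.4, 454 and 853 in control and 54.5, 33.8, 18.4 and 112 in DSS. All DSS libraries were low for the 3 genes, while controls differed among themselves, and control library b had the lowest control value for Itih2 and Slc30a10. On the log2 scale Itih2 fell by 2.28 (DESeq adjusted p = 5.37e-08), Tfpi fell by 3.07 (adjusted p = 0.00568) and Slc30a10 fell by 4.08 (adjusted p = 0.00771) by the authors' deposited table. Unannotated transcripts on both sides of Slc30a10, Gm2061 and 5033404E19Rik, were lower too, and with the strand setting of the counting not given their reads may be shared. By limma, Tfpi no longer passed without control library c (adjusted p = 0.0703) and Itih2 without control library a (adjusted p = 0.0521).

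Outside the usual panels the 8 largest drops in mean normalized reads were those of Tgm3, Selenbp1, Klk1, Sycn, Car2, Gas6, Wfdc2 and Slc36a1. Sycn, syncollin, a protein of secretory granules, was at 10802, 7104 and 12389 normalized reads in control and 1594, 1886, 2955 and 3087 in DSS. Every DSS library was below every control, and libraries a and b were the lowest. Tgm3, a transglutaminase that crosslinks proteins, fell from a mean of 34968 to 11672 (DESeq adjusted p = 2.44e-09), and Selenbp1, an enzyme of sulfur compound oxidation, from 28531 to 12051 (adjusted p = 5.44e-05) by the authors' deposited table. Klk1, tissue kallikrein, fell from 17392 to 8834 (adjusted p = 0.0177) and Wfdc2, a secreted protein with whey acidic protein domains, from 7833 to 2626 (adjusted p = 6.95e-05) by the authors' deposited table. Car2, a cytosolic carbonic anhydrase, and Gas6, a ligand of the TAM receptors, had log2 changes of -0.73 and -0.70 (adjusted p = 0.01 and 0.0125) by the authors' deposited table. Slc36a1, a proton-coupled amino acid transporter, fell from 7044 to 1921 (adjusted p = 3.25e-11) by the authors' deposited table, and its control libraries held 8222, 7269.6 and 5641 normalized reads.

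Calls were then counted in 39 functional lists, of which 36 held at least 1 call. The share of all 18099 genes tested was 2.61% called higher and 1.78% called lower, with a median log2 change of 0.02. On the higher side the lists for mucin-type glycan enzymes and immune ligands had 8 calls each, and those for nucleic acid sensors, the PARP family, IRF, STAT and C/EBP factors and MAPK phosphatases with Sprouty and Spred genes had 5 each. On the lower side no list had more than 4 calls.

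**Figure D3:**
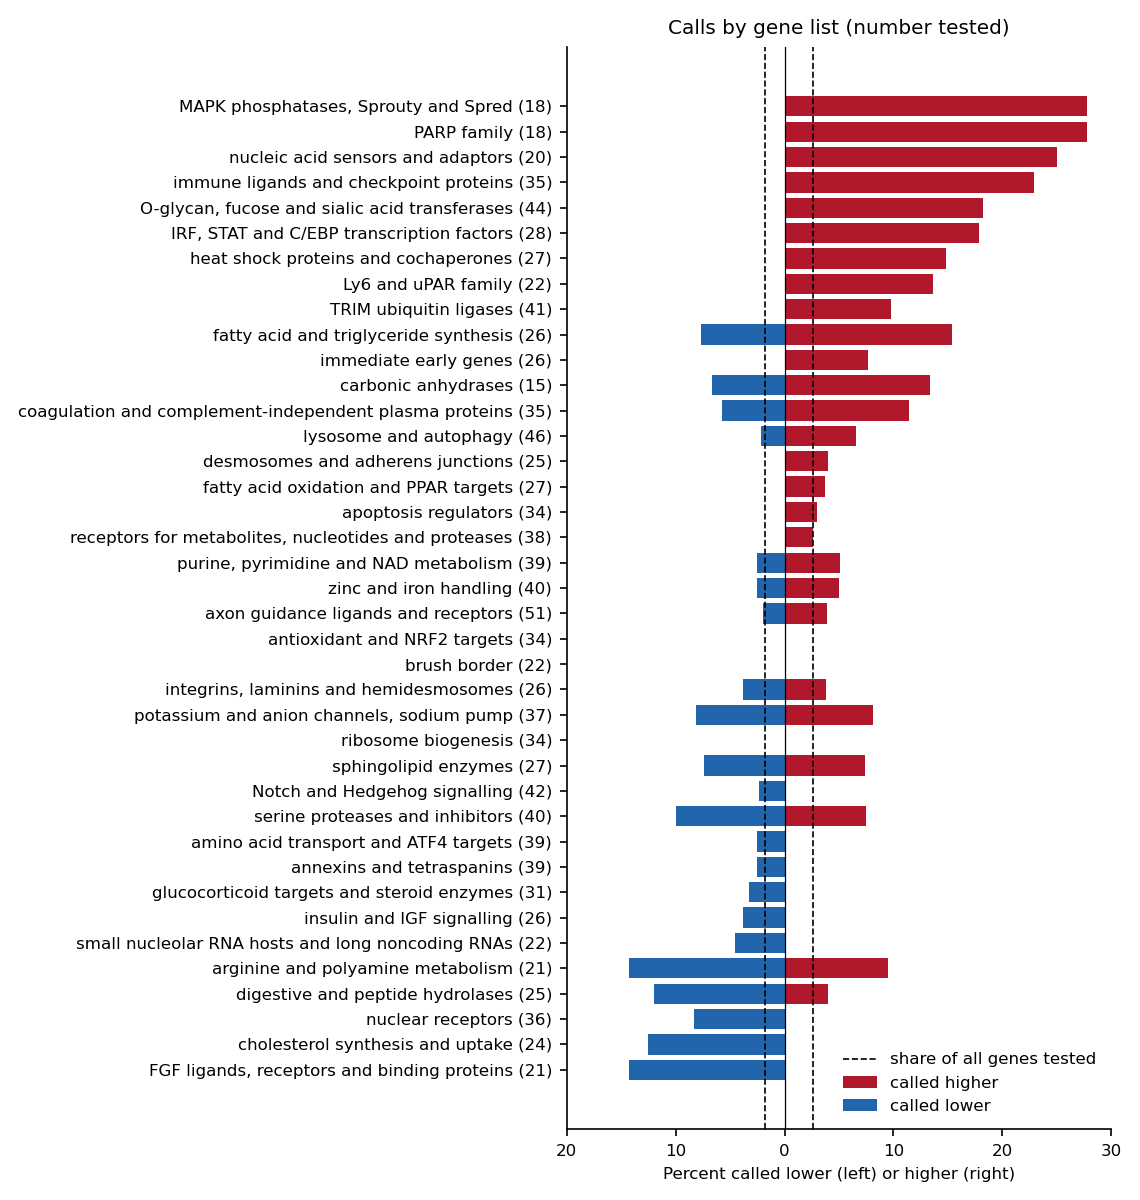
Percent of the tested members of each functional list that were called higher (red, right) or lower (blue, left) in DSS by the authors' DESeq test, with the number tested in brackets. Dashed lines mark the shares over all genes tested, 2.61% higher and 1.78% lower; a list of 20 genes moves by several percent with each call.

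Sensors of foreign nucleic acid and their adaptors had 5 of 20 called higher in DSS, 0 lower and a median log2 change of 0.33. Dhx58, a regulator of the RIG-I receptors, was at 444, 441 and 371 normalized reads in control and 957, 873, 1001 and 948 in DSS. Nlrc5, the transactivator of MHC class I genes, was at 136, 419.7 and 93.2 in control and 1814, 917, 1173 and 1432 in DSS. Dhx58 was even within both groups, whereas for Nlrc5 control library b stood above the other controls. According to the authors' deposited table, Dhx58 rose by 1.17 (DESeq adjusted p = 6.63e-05), Nlrc5 by 2.62 (adjusted p = 1.06e-09), the helicase Ddx60 by 1.51 (adjusted p = 9.40e-05) and Ddx58, which encodes RIG-I, by 1.29 (adjusted p = 1.23e-04). Limma tested 13 of the list and called 3 higher, or 4 without control library b; without control library a it no longer called Nlrc5 (adjusted p = 0.0707) or Ddx58 (adjusted p = 0.113), and without control library c again not Ddx58 (adjusted p = 0.103).

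The list of the PARP family, enzymes and zinc finger proteins related to ADP-ribosylation, had 5 of 18 members called higher, 0 lower and a median log2 change of 0.44. Besides PARP genes the list holds Dtx3l, which is among the 5. Parp3, which acts in DNA break repair, was at 719, 865 and 541 normalized reads in control and 1285, 1411, 1468 and 1650.3 in DSS. Zc3hav1, an antiviral protein that binds viral RNA, was at 1114, 1078 and 811 in control and 2390.3, 1845, 1576 and 1689 in DSS. No control library reached the lowest DSS library in either case. The authors' deposited table gives log2 rises of 1.04 for Parp3 (DESeq adjusted p = 4.18e-04), 0.91 for Zc3hav1 (adjusted p = 5.58e-04) and 1.07 for Parp14 (adjusted p = 4.04e-05). Parp14 adjoins Dtx3l, a ubiquitin ligase that works with Parp9, and Parp9 itself, and all 3 were called higher. Limma tested 14 of the list and called 3 higher and 1 lower, or 5 and 1 without control library b. With control library a left out limma no longer called Parp3 (adjusted p = 0.0641) or Zc3hav1 (adjusted p = 0.0773, and 0.0968 without control library c).

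Transcription factors of the IRF, STAT and C/EBP families, in a list that also holds Nfil3, had 5 of 28 called higher, Nfil3 among them, and 0 lower. Irf7, a driver of interferon genes, rose from a mean of 2274 to 6987 normalized reads (DESeq adjusted p = 0.00136) and Stat2, a partner in interferon signalling, from 1647 to 3039 (adjusted p = 0.00354) by the authors' deposited table. TRIM ubiquitin ligases had 4 of 41 called higher and 0 lower. Trim30a, known from innate immune regulation, was at 416, 539 and 423 normalized reads in control and 1656, 1215, 1131 and 884 in DSS, and Trim10, a member described in red cell development, at 2.90, 0.988 and 2.12 in control and 32.4, 54.4, 45.3 and 41.9 in DSS. Library a was highest for Trim30a and library b for Trim10, with no overlap in either gene, and both Trim10 means lie under the member limit. Trim30a rose by 1.41 (adjusted p = 2.64e-06) by the authors' deposited table, and without control library a its limma adjusted p was 0.0594.

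Promoters of called genes were searched for short motifs to show what members that moved together share in sequence. The windows are the 250 bases before each gene's start in the RefSeq table of GRCm38.p6, which held a promoter for 361 genes called higher, 250 called lower and 14108 of all genes tested. The ISRE-like pattern, 2 copies of GAAA with any 2 bases between them on either strand, is close to the element bound by interferon-activated STAT and IRF proteins and occurred in 10.2% of the promoters of genes called higher, 0.4% of those called lower and 2.67% of all. The E-box CACGTG, which reads the same on both strands, occurred in 3.88% of promoters called higher, 12.4% called lower and 7.63% of all. For comparison, the kappaB-like pattern, GGGA and TTTCC with any base between them on either strand, occurred in 1.11%, 0.4% and 0.369% (4, 1 and 52 promoters). The D-box TTATGTAA, on either strand, occurred in 0.277%, 2% and 0.652% (1, 5 and 92 promoters). The heat shock element, GAA, TTC and GAA with any 2 bases between each on either strand, occurred in 0.277%, 0% and 0.319%. The cyclic AMP element TGACGTCA occurred in 1.94%, 1.2% and 2.38%. Genes of the usual panels are counted in all these shares. A match is a description of the letters in the window. The upstream 250 bases of 4 members called higher with an ISRE-like match and of 2 called lower with an E-box are shown to let the position of the match be seen, with the match in capitals (TTTC runs are the pattern on the other strand).
Lgals9: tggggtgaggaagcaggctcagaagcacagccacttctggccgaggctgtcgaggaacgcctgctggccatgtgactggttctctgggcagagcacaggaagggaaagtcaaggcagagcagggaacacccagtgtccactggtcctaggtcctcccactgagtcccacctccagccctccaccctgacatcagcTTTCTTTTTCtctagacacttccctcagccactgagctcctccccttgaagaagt
Ddx60: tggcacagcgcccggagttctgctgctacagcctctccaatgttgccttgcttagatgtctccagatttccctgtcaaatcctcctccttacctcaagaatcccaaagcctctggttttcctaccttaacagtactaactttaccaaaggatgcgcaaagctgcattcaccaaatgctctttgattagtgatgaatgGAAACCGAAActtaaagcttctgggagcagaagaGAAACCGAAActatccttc
Trim30a: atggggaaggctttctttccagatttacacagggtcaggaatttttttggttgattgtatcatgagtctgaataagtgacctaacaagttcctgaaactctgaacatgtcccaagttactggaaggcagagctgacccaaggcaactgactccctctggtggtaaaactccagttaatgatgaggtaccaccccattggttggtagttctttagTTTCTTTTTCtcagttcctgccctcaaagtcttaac
Apol9a: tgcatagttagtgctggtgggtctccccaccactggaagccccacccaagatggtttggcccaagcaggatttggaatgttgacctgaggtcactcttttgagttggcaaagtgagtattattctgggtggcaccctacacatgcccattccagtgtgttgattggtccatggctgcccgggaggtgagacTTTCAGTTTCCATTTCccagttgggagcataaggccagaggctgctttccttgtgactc
Slc36a1: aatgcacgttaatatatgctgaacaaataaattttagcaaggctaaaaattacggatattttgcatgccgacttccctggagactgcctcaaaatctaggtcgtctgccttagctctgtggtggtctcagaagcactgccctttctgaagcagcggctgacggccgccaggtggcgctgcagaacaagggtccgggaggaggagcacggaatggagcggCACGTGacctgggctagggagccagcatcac
Insig1: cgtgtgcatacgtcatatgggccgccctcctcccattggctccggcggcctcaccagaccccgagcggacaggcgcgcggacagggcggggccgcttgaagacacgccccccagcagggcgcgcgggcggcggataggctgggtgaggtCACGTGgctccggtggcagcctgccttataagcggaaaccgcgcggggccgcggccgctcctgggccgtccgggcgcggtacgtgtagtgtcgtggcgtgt
In GRCm38.p6 these windows are chr11:78984925-78985174 on the minus strand for Lgals9, chr8:61927837-61928086 on the plus strand for Ddx60, chr7:104465194-104465443 on the minus strand for Trim30a, chr15:77411081-77411330 on the minus strand for Apol9a, chr11:55204090-55204339 on the plus strand for Slc36a1 and chr5:28071162-28071411 on the plus strand for Insig1. Ddx60 and Apol9a hold 2 matches each, which overlap in Apol9a, and the others hold 1. All ISRE-like matches shown begin within 59 bases of the start.

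Immune ligands and checkpoint proteins had 8 of 35 members called higher, 0 lower and a median log2 change of 0.79. Cd274, the checkpoint ligand PD-L1, was at 157, 206 and 129 normalized reads in control and 571, 356, 440.4 and 382 in DSS. Btnl2, a butyrophilin-like inhibitor of T cells, was at 52.1, 176 and 22.2 in control and 388, 185, 552 and 382 in DSS. Cd274 was separated clearly, while the lowest DSS value of Btnl2 lay just above control library b. In the authors' deposited table Cd274 rose by 1.41 (DESeq adjusted p = 0.00233), Btnl2 by 2.18 (adjusted p = 0.00106), the galectin Lgals9, which carries the first promoter printed above, by 1.73 (adjusted p = 7.30e-14) and Ceacam12, a carcinoembryonic antigen family member, by 3.85 (adjusted p = 6.62e-05). Cd86 and Cd40, costimulatory proteins of antigen-presenting cells, were called as well, and DSS library a, with the highest leukocyte sums, held their highest values (134 and 155 normalized reads); that part was not tested. Limma called 5 of 27 higher, and 10 without control library b; without control library a the limma adjusted p was 0.0675 for Cd274 and 0.188 for Btnl2, and without control library c 0.0555 and 0.161. Btnl2, at 0.0471 with all libraries, was also not called by limma without any 1 of the DSS libraries (adjusted p = 0.0766, 0.0519, 0.0859 and 0.0981 without a, b, c and d).

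Enzymes that build mucin-type glycans, fucose and sialic acid caps had 8 of 44 called higher, with 0 lower and a median log2 change of 0.15. In number this equals the calls of the immune ligands, a shorter list with 8 of 35. The glycan list does not hold Wbscr17 or St8sia5, both called lower and described with the falls above. B3gnt6, which makes the core 3 branch of colonic mucins, was at 33.8, 65.2 and 44.5 normalized reads in control and 255, 131, 173 and 139.6 in DSS. St3gal1, a sialyltransferase that caps core 1 chains, was at 40.6, 128 and 33.9 in control and 579, 224, 835 and 1295 in DSS. Both lay above control in every DSS library, B3gnt6 with its peak in library a and St3gal1 in library d. The authors' deposited table has rises of 1.87 for B3gnt6 (DESeq adjusted p = 1.12e-05), 3.44 for St3gal1 (adjusted p = 0.00253), 1.06 for the core 2 and 4 enzyme Gcnt3 (adjusted p = 6.62e-05) and 0.86 for Galnt3, which attaches the first sugar (adjusted p = 0.00673), on the log2 scale. B4galnt2, which makes the Sda antigen of the colon, rose from a mean of 5899 to 11132 (adjusted p = 0.0451) by the authors' deposited table. The remaining calls were B4galnt1, C1galt1 and Galnt12. Limma tested 24 of the list and called 4 higher, with and without control library b; without control library a the limma adjusted p was 0.0817 for B3gnt6, 0.0965 for St3gal1 and 0.184 for Galnt3, and without control library c 0.071, 0.0841 and 0.154. Galnt3 also lost its limma call without DSS library a, b or d (adjusted p = 0.0663, 0.0738 and 0.0726).

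Feedback inhibitors of growth factor signalling, the MAPK phosphatases, Sprouty and Spred genes, had 5 of 18 called higher, 0 lower and a median log2 change of 0.43. Dusp8, a phosphatase of stress kinases, was at 113, 211 and 121 normalized reads in control and 358, 303, 329 and 346 in DSS. Spry4, an inhibitor of receptor tyrosine kinase signalling, was at 29.9, 120.5 and 57.2 in control and 358, 232, 198 and 259 in DSS. Control library b was again the highest control for both. Dusp6, the phosphatase of ERK, rose by 1.73 (DESeq adjusted p = 3.69e-13), Spry4 by 1.92 (adjusted p = 1.59e-06), Dusp8 by 1.17 (adjusted p = 0.00207) and Dusp10 by 1.09 (adjusted p = 0.0231) by the authors' deposited table. Dusp10 overlapped between groups, with 106 normalized reads in DSS library b and 139 in control library b. Limma called 2 of 17, or 3 without control library b, and without control library a gave adjusted p = 0.104 for Dusp8 and 0.0927 for Spry4, and without control library c 0.0968 and 0.105. Spry4 also missed without DSS library b or d (limma adjusted p = 0.0521 and 0.0582), and Dusp10 was not called by limma with all libraries (adjusted p = 0.128) or under any of the 16 settings run.

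Heat shock proteins and their cochaperones had 4 of 27 called higher and 0 lower. Hsph1, which releases nucleotide from HSP70, was at 768, 623 and 728 normalized reads in control and 1649, 2563, 1269 and 1883 in DSS. Controls were close together and library b was the highest of DSS. Hsph1 rose by 1.38 (DESeq adjusted p = 0.00812), the HSP70 partner Dnaja1 by 0.87 (adjusted p = 8.18e-04) and the HSP90 partner Chordc1 by 0.80 (adjusted p = 0.0157) by the authors' deposited table. Limma gave adjusted p = 0.0562 for Hsph1 and 0.143 for Chordc1 without control library a, and 0.0555 and 0.127 without control library c. Chordc1 also lost its limma call without control library b (adjusted p = 0.0711) and without DSS library a, b or d (0.0599, 0.061 and 0.0799).

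Arginine and polyamine metabolism moved in both directions, with 2 of 21 called higher and 3 lower. Arg2, the mitochondrial arginase, was at 20.3, 9.88 and 21.2 normalized reads in control and 167, 180.4, 75.1 and 72.9 in DSS, and Smox, which oxidizes spermine, at 769, 696 and 658 in control and 1477, 1696, 1969.8 and 2770.2 in DSS. Gatm, which uses arginine for the first step of creatine synthesis, was at 609, 438 and 684 in control and 134, 153, 159 and 136 in DSS, and Oat, which converts ornithine, at 3834, 3390.4 and 3965 in control and 2110.5, 2204, 1558 and 1512 in DSS. None of the 4 genes overlapped between groups, Arg2 was higher in DSS libraries a and b than in c and d, and Gatm was even. According to the authors' deposited table, Arg2 rose by 2.85 (DESeq adjusted p = 2.41e-06) and Smox by 1.48 (adjusted p = 0.00309), while Gatm fell by 1.99 (adjusted p = 6.59e-09) and Oat fell by 1.01 (adjusted p = 2.53e-04). Limma also called 2 higher and 3 lower, of 17 tested. With control library a left out it no longer called Arg2 (adjusted p = 0.0548) or Oat (adjusted p = 0.0672, and 0.058 without control library c).

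Fibroblast growth factor genes had 0 of 21 called higher and 3 lower, with a median log2 change of -0.54. Of these 21 genes only 10 had a mean of 50 or more in either group, and the median is taken over all 21. Klb, the coreceptor for endocrine FGFs, was at 210.5, 207 and 261 normalized reads in control and 64.0, 71.7, 51.0 and 41.9 in DSS. Fgfr3, a receptor tyrosine kinase, was at 1846, 1703 and 1799.6 in control and 929.6, 798, 925 and 606 in DSS. Controls varied little for both and every DSS library was lower. Klb fell by 1.98 (DESeq adjusted p = 6.71e-05), Fgfr3 fell by 1.13 (adjusted p = 1.83e-04) and the FGF carrier Fgfbp1 fell by 0.63 (adjusted p = 0.0473) as log2 values of the authors' deposited table. Limma called the same number, 3 of 19, also without control library b; Fgfbp1 alone lost its call without control library a (adjusted p = 0.104).

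Ion transport genes moved in both directions. Of 37 potassium and anion channels and sodium pump genes, 3 were called higher and 3 lower, and of 15 carbonic anhydrases 2 were called higher and 1 lower. Fxyd4, a regulator of the sodium pump, was at 925, 442 and 1025 normalized reads in control and 42.7, 67.6, 55.2 and 101 in DSS. Kcnq1, a basolateral potassium channel, was at 2732, 2818 and 3597 in control and 1201, 1656, 1634 and 1745 in DSS. Both were lower in every DSS library, Fxyd4 by the wider margin. In the authors' deposited table Fxyd4 fell by 3.58 (DESeq adjusted p = 4.65e-06), Kcnq1 fell by 0.97 (adjusted p = 1.04e-04), and the 2-pore channels Kcnk6 and Kcnk1 rose by 0.85 (adjusted p = 0.00266) and 0.80 (adjusted p = 0.00869). Car12, a membrane-bound carbonic anhydrase, was at 345, 672 and 342 normalized reads in control and 1232, 1859, 1116 and 1539 in DSS. Its rise was 1.67 in the authors' deposited table (DESeq adjusted p = 7.56e-09), beside the log2 change of -0.73 for Car2 given above. Without control library a the limma adjusted p was 0.0531 for Kcnq1, 0.0979 for Kcnk6 and 0.0672 for Car12, and without control library c 0.0653, 0.0904 and 0.0578.

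Cholesterol synthesis and uptake genes had 0 of 24 called higher and 3 lower, with a median log2 change of -0.30. Insig1, which holds the sterol sensor in the endoplasmic reticulum and carries the last promoter printed above, fell from a mean of 4434 to 1652 normalized reads (DESeq adjusted p = 1.10e-04) and squalene synthase, Fdft1, from 5040.3 to 3365 (adjusted p = 0.0276) by the authors' deposited table. Control library b was the highest control for both, with 5585 normalized reads of Insig1 against 3865 and 3853. Neither was recovered in DSS, and limma called 0 of the 10 members it tested (2 had an unadjusted p under 0.05), whose median log2 change was -0.17 with all libraries and 0.04 without control library b. Fatty acid and triglyceride synthesis had 4 of 26 called higher and 2 lower, among them the phosphatidate phosphatase Lpin2 (log2 1.19, DESeq adjusted p = 3.56e-05) and the lipid droplet protein Plin2, with a log2 change of -0.65 (adjusted p = 0.0212), both by the authors' deposited table.

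Nuclear receptors had 0 of 36 called higher and 3 lower. Nr1h3, the liver X receptor alpha, was at 852, 664 and 860.1 normalized reads in control and 275, 405, 544 and 442 in DSS, and Nr1i3, the xenobiotic sensor CAR, at 148, 182 and 78.4 in control and 48.2, 35.4, 52.4 and 38.8 in DSS. Neither overlapped between groups. Vdr, the vitamin D receptor, fell from a mean of 11952 to 7626 (DESeq adjusted p = 0.0376) by the authors' deposited table, with 14344 in control library b. Nr1h3 had a log2 change of -0.93 (DESeq adjusted p = 0.00168) and Nr1i3 one of -1.64 (adjusted p = 0.00924) by the authors' deposited table. With control library a left out, the limma adjusted p was 0.184 for Nr1h3 and 0.164 for Nr1i3. Nr1h3 also missed without control library c (limma adjusted p = 0.173) and Nr1i3 without control library b (0.0648), and both without DSS library b (0.0826 and 0.067) or d (0.0705 and 0.0693).

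Nucleotide and sphingolipid enzymes held single calls in both directions. Dpyd, the first enzyme of pyrimidine breakdown, was at 440.3, 386 and 436 normalized reads in control and 118, 89, 96.3 and 96.2 in DSS. Nmnat3, which makes NAD in mitochondria, was at 538, 560.0 and 545 in control and 267, 233, 282 and 206 in DSS. The libraries of each group lay close together for both genes, with a wide gap between groups. Dpyd fell by 2.08 (DESeq adjusted p = 6.33e-09) and Nmnat3 fell by 1.15 (adjusted p = 8.56e-04) by the authors' deposited table, and limma called both with any single library left out. Of 39 genes of purine, pyrimidine and NAD metabolism 2 were called higher and 1, Nmnat3, lower, Dpyd not being in that list. Of 27 sphingolipid enzymes 2 were called in each direction, in a list that does not hold Sptssb, whose rise is given above. Acer1, an alkaline ceramidase, was at 2236, 2112 and 2558 in control and 724, 808, 1381 and 1095 in DSS, and Degs1, which desaturates dihydroceramide, at 149, 261 and 200.2 in control and 582, 432, 295 and 431 in DSS. DSS libraries a and b were the lowest for Acer1, and library a was the highest for Degs1. Acer1 fell from a mean of 2302 to 1002 (DESeq adjusted p = 0.00132) and Degs1 rose from 203 to 435 (adjusted p = 0.00483) by the authors' deposited table, while limma gave adjusted p = 0.0773 and 0.199 without control library a and 0.0775 and 0.154 without control library c. Degs1 also missed without DSS library a, b or d (limma adjusted p = 0.0692, 0.0924 and 0.0927).

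Lists for metal handling, plasma proteins and metabolite receptors each held a few calls. Steap4, a metalloreductase of iron and copper, was at 347, 282 and 119.7 normalized reads in control and 1449.7, 1227, 1022 and 1138 in DSS. Ffar4, a receptor for long-chain fatty acids, was at 337, 197 and 284 in control and 1109.8, 1439, 551 and 673 in DSS. Steap4 was even in DSS, whereas Ffar4 was higher in libraries a and b than in c and d. Steap4 rose by 2.28 (DESeq adjusted p = 1.74e-04) and Ffar4 by 1.79 (adjusted p = 0.00249) by the authors' deposited table. Apol9a, an apolipoprotein L with a near-identical copy, Apol9b, was at 264, 296 and 226 in control and 769, 636, 1568 and 1377 in DSS. Here libraries c and d were the high ones, and the split of reads between the copies is uncertain. According to the authors' deposited table, Apol9a rose by 2.05 (DESeq adjusted p = 0.0154). Zinc and iron genes had 2 of 40 called higher and 1 lower, and receptors for metabolites, nucleotides and proteases 1 of 38 higher and 0 lower, a share near that of all genes. The list of coagulation and other plasma proteins, which holds the Apol genes, had 4 of 35 called higher and 2 lower, with a median log2 change of -0.01. Limma without control library a gave adjusted p = 0.0747 for Ffar4 and 0.0607 for Apol9a, without control library c 0.0852 and 0.0602, and called Steap4 with any single library left out.

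Adhesion and guidance genes gave few calls, some of them large. Itgav, the integrin alpha V chain, was at 472, 569.8 and 469 normalized reads in control and 1542, 1412, 1139 and 1929.5 in DSS. Lamb2, a laminin chain of basement membranes, was at 491, 347 and 563 in control and 198, 198, 173 and 178 in DSS. Sema7a, a membrane-anchored semaphorin, was at 67.6, 57.3 and 78.4 in control and 413, 367, 392 and 558 in DSS. All 3 were separated, and Lamb2 was nearly the same in the 4 DSS libraries. In the authors' deposited table Itgav rose by 1.58 (DESeq adjusted p = 0.00356), Lamb2 fell by 1.32 (adjusted p = 7.20e-05) and Sema7a rose by 2.68 (adjusted p = 0.0348). By DESeq their lists had 1 of 26 integrin and laminin genes called in each direction, and 2 of 51 guidance genes higher and 1 lower. These shares were near those over all genes. The median log2 change was 0.49 for the integrin and laminin list and -0.02 for the guidance list, against 0.02 over all genes. Limma called 3 higher and 1 lower of 15 integrin and laminin genes, or 4 and 1 without control library b. Of 39 guidance genes limma called 3 higher and 1 lower, or 3 and 0 of 36 without control library b. Without control library a limma no longer called Lamb2 (adjusted p = 0.0646).

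**Figure D4:**
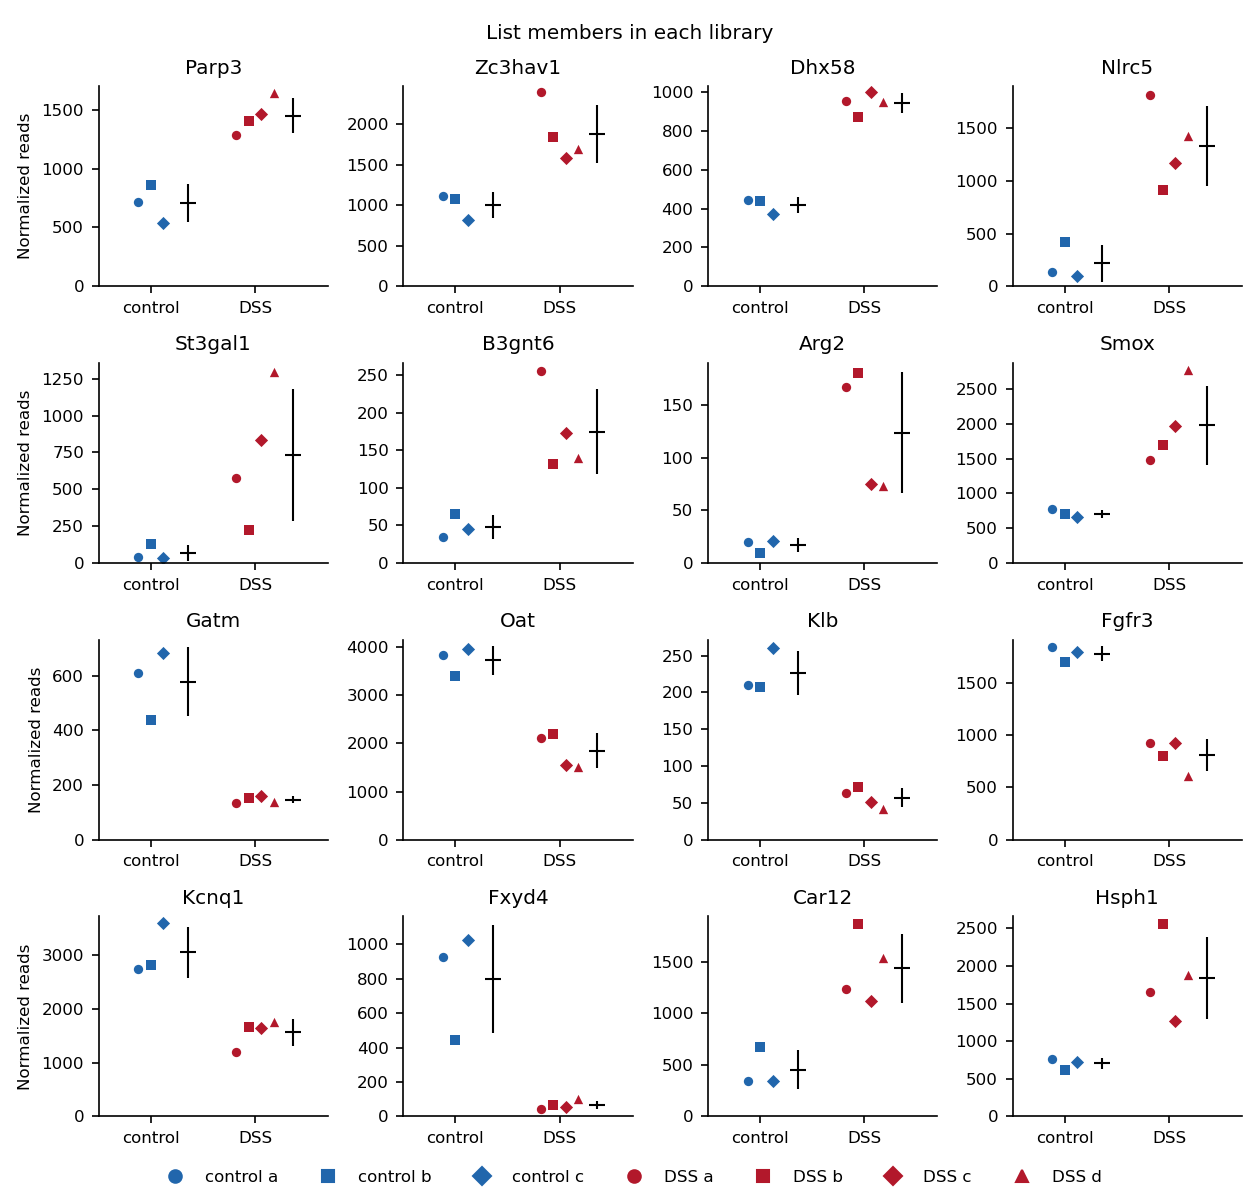
Normalized reads of 16 list members in each library, with control libraries in blue and DSS libraries in red, a marker shape for each letter, and a black bar for the mean with its SD (n = 3 and n = 4); each y axis starts at 0. Dhx58, Gatm, Klb and Fgfr3 vary little within the groups, while St3gal1 and Arg2 vary widely within DSS.

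Of the 39 lists, 3 held no call. Of 34 ribosome biogenesis genes 0 were called by DESeq (median log2 change 0.01) and 1 had an unadjusted p under 0.05, while limma called 0 of 30, with 0 under that unadjusted limit. Brush border genes gave 0 of 22 by DESeq, with 3 under the unadjusted limit, and 0 of 4 by limma, with 1 under it. The list of antioxidant genes and NRF2 targets gave 0 of 34 by DESeq, with 2 under the unadjusted limit, and 0 of 17 by limma, with 1 under it. That list does not hold the glutathione transferases Gstm1 and Gstm2, which DESeq called lower. Npm1, a nucleolar chaperone, stood at 8202 normalized reads in control and 6857 in DSS (DESeq adjusted p = 0.709), and Prdx6, a peroxiredoxin, at 44211 and 40826 (adjusted p = 0.851) by the authors' deposited table. Cdhr5, a brush border cadherin, was at 17453 and 21713 (DESeq adjusted p = 0.973) by the authors' deposited table.

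Called genes often lay beside another call in the same direction. With genes ordered by position, 85 of 472 genes called higher had a neighbour called higher, which is 18%, against 5.07% of all genes placed, and 45 of 320 called lower had a neighbour called lower, 14.1% against 3.46%. On the higher side 9 runs held 3 or more genes, the longest with H2-DMb1, Psmb9, Tap1, Psmb8 and Tap2 of antigen presentation. Others held interferon-induced genes, such as Ifit2 and Ifit3, or Gbp5, Gbp7 and Gbp3. Besides gene families with similar copies, such as the cytochromes Cyp2c68, Cyp2c40 and Cyp2c69 on the lower side, some runs joined unlike genes. On the lower side these included Hes1, a Notch target, with Cpn2, a carboxypeptidase subunit, and Dbp, a circadian regulator, with Sphk2, a sphingosine kinase. Cpn2 was at 182, 175 and 95.3 normalized reads in control and 22.9, 32.1, 35.4 and 17.1 in DSS. Sphk2 was at 3092, 2322 and 2805 in control and 1326, 1439, 1827 and 1859.7 in DSS. Both genes were lower in every DSS library. Limma no longer called Cpn2 without control library a (adjusted p = 0.0687), Sphk2 without control library a or c or DSS library b (adjusted p = 0.143, 0.114 and 0.0617), or Hes1 without control library a or c or DSS library c or d (adjusted p = 0.146, 0.153, 0.0513 and 0.0688). On the higher side Smox adjoined Rnf24, and Trim10 adjoined Trim40. Reads of overlapping or adjoining genes may be shared where the strand was not used in counting.

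The AOM+DSS group served to place the DSS values, and since both treated groups were compared with the same controls the folds are not independent. The genes had also been chosen on these DSS libraries, for their distance from control, and such a choice favours DSS values at the extreme, so the differences are given as a description and nothing is read from their number. Of 101 genes named by the selection rule and recovered in both groups, limma called 6 different between DSS and AOM+DSS, where 0.0922% of 14102 genes were higher in DSS and 2.4% lower. Pax5 was higher in DSS, at 229 ± 46.8 normalized reads (SD, n = 4) against 26.7 ± 20.3 in AOM+DSS (SD, n = 3), with a log2 difference of 3.47. Pdlim4, a cytoskeletal adaptor, was at 109, 89.9 and 108 in control and 27.7, 14, 9.91 and 7.76 in DSS, and at 249.9 ± 70.8 in AOM+DSS (SD, n = 3; log2 difference -4.10). Bex1, low in DSS, was at 146 ± 109 in AOM+DSS (SD, n = 3; log2 difference -4.21), and Lamb2 stood at 463 ± 81.7 there (SD, n = 3; log2 difference -1.29). Wfdc18 and Sema7a, higher in DSS than in control, were higher still in AOM+DSS, at 3341 ± 348 and 1490.1 ± 776 (SD, n = 3; log2 differences -1.43 and -1.66). Without AOM+DSS library a 1 of the 101 genes was called, without library b 2, and without library c 11.

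**Figure D5:**
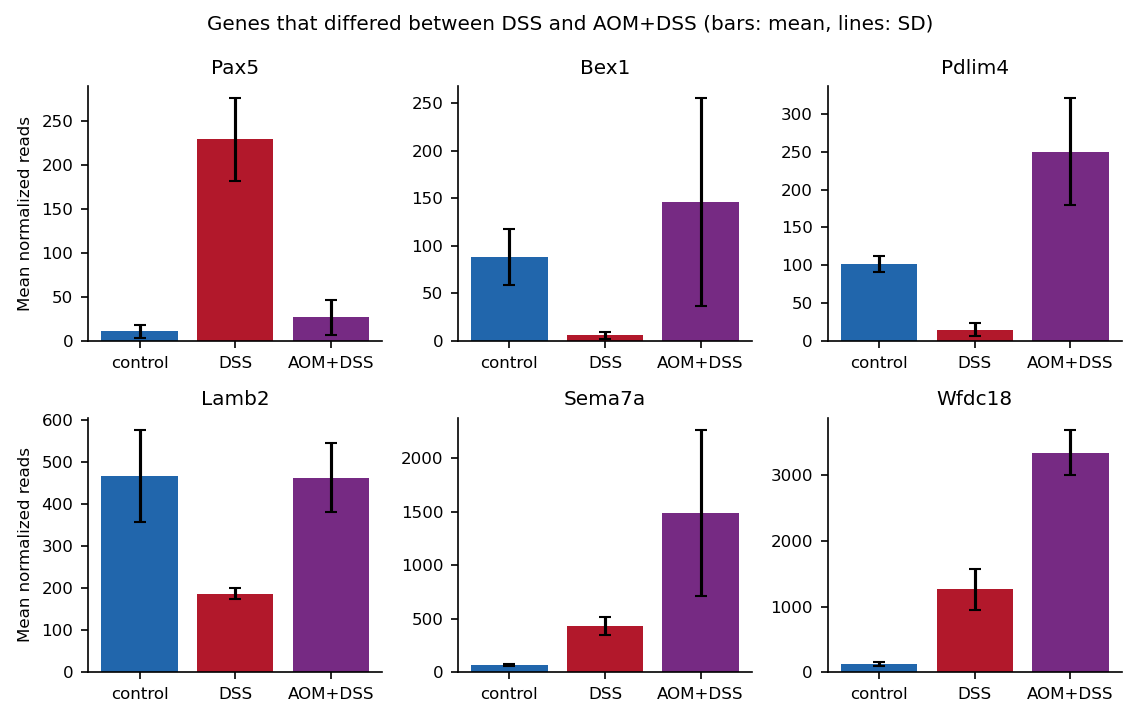
Mean normalized reads of the 6 genes that limma called different between DSS and AOM+DSS, in control (n = 3), DSS (n = 4) and AOM+DSS (n = 3), with the SD as lines and the y axis from 0. The Pax5 bar is tallest in DSS, the Bex1, Pdlim4 and Lamb2 bars are shortest in DSS, and the Sema7a and Wfdc18 bars are tallest in AOM+DSS.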

How the data were processed

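Reads were mapped to mm9 with TopHat2 2.0 and compared with DESeq, per the submitters' processing notes. For the read counter, the annotation and the strand setting no source used here gives a name. The deposited signal values are group means of normalized reads over 23364 genes, with the authors' ratio of means as fold, its log2 and their p-values, per the file headers. Members and gene lists were chosen with earlier results of these data known. Whole reads per library were recovered where 1 combination matched the printed means (99.9% of genes and 94.1% of normalized reads in control, 90.6% and 35.7% in DSS, where abundant genes were not recovered; on simulated data 99.5% and 90.0%, 0 wrong). No count model was run on the recovered reads. Limma 3.58.1 (R 4.3.3, trend) tested log2 of normalized recovered reads with 1 added, for genes with a mean of at least 1. On simulated data for DSS against control it found 95% of 2-fold and 100% of 4-fold changes over 13810 genes, and called 9 unchanged genes. Every simulated gene had the same dispersion, 0.0241, and changes were placed only in genes with a mean of at least 50. No simulated library stood apart as control library b does, so these shares do not measure what limma finds in these data. Genes were named by a rule: called, either mean at or above 50, an established symbol, outside the usual panels, recovered with at least 3 reads and no overlap; then the 12 largest folds and 8 smallest adjusted p in each direction, the 8 largest differences of means without the recovery condition, and up to 4 members called per list, which may be usual markers or have lower means, or the most abundant member of a list with none. Cd79a, Cd86, Cd40, Mpo, Csf3r, Cxcr2, Gzmb, Sprr1a, Krt13, Gstm1, Gstm2, Bex2 and Bex4, and the genes named only as neighbours or remaining calls, were chosen after their values were seen. Depth limits the precision of the least expressed genes, and 3 and 4 libraries limit all tests.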

Additional observations from a re-analysis of the deposited data

Results flagged for a closer look

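Among 113 sets of 4 DSS values, from the named genes and the sums of cell type markers, 2 had a library far from the other 3, where chance gives about 1 set in 20. The sum of 11 T and NK cell markers was 4547 normalized reads in DSS library a, against 765 to 1039 in the others. The sum of 2 recovered goblet cell markers was 1692 in DSS library d, against 2119.9 to 2177 in the others. Neither was taken further.

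Of 101 named genes, 6 differed between DSS and AOM+DSS by limma, in a comparison that is not independent of the choice of these genes on the same DSS libraries. The log2 differences of DSS minus AOM+DSS were 3.47 for Pax5, -1.43 for Wfdc18, -4.21 for Bex1, -4.10 for Pdlim4, -1.29 for Lamb2 and -1.66 for Sema7a.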

How the results depend on the processing

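The authors' test called 472 genes higher and 322 lower in DSS. At an adjusted p under 0.01 the counts were 283 and 179, and with at least 2-fold change 342 and 207. With p-values adjusted again over the members, with an adjusted p under 0.1 or by limma, the counts stayed within 1.5 times of these. By limma (493 higher, 435 lower) pseudocounts, filters on low means and upper quartile scaling kept both counts within 1.5 times. A correction for GC content and length, which moved the median log2 change of all genes from -0.01 to -0.11, gave 530 and 784. Leaving out 1 library gave 103 to 759 higher and 63 to 392 lower: 103 and 63 without control library a, 759 and 392 without b, 123 and 95 without c, and 282 and 267 without DSS library d. Without DSS libraries a and b the counts were 747 and 864, and without c and d 1294 and 997. The cause of these moves was not tested. Of 97 named genes called by the authors and tested by limma, 88 passed with all libraries, 89 without control library b, and 38 under all 16 settings. These genes were named for calls on the same libraries, many of them also for no overlap, so passing limma is no separate support. Of 1765 values of named genes under other settings 1488 were counted as unchanged, 276 kept direction and lost the call, and 1 changed sign. The sign change was that of Col1a1, which was not called (0.96 without control library b). The 1488 include values with a constant added to both group means. That setting cannot change the sign and has no p-value, so its values could not lose direction or call. Of 208 counts of calls in lists, 68 moved by over 1.5 times under limma, where lists lose the genes not recovered. Named genes different between DSS and AOM+DSS numbered 6, and 1 to 11 with 1 library left out: 1 without AOM+DSS library a, 2 without b and 11 without c. No paired analysis was possible because libraries recovered from group means cannot be tied to replicate numbers.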
